A study of Mus musculus with 20 samples.

Results

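Pachytene spermatocytes purified from adult wild-type C57BL/6J mice were compared with the whole testis of 7-day-old mice of the same strain by RNA sequencing. The comparison rests on 4 of the 20 samples of the series, 2 biological replicates per group, chosen by the stage named in their labels. The day 7 group is whole tissue. The pachytene group came from mice aged 70 to 80 days, whose germ cells were parted by size by sedimentation at unit gravity (STA-PUT), and was judged about 90% pure by microscopy. No treatment, transgene or mutation is named for either group. Age, purification and germ cell stage differ between the groups together and cannot be told apart. The other RNA libraries of the series share the fit. They came from day 1 and day 3 testis and from a fraction labelled leptotene/zygotene, which is used below as a second comparison.

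Pachytene is the long stage of meiotic prophase in which homologous chromosomes are joined along their length by the synaptonemal complex, breaks in the DNA are repaired and some become crossovers. The X and Y chromosomes, which can pair only over a short stretch, are gathered in the sex body and their genes are silenced. In the same stage the autosomes are strongly transcribed. The cells make the pachytene piRNAs, short RNAs bound by PIWI proteins, and many transcripts for the later building of the sperm, some of which are stored before they are translated. The testis of a week-old mouse has no pachytene spermatocytes. Its tubules hold Sertoli cells and spermatogonia, and Leydig, peritubular, endothelial and blood cells lie around them.

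The day 7 libraries held 13247563 and 11813196 gene counts, and the pachytene libraries 6423696 and 9280910. Levels are CPM, the counts of a gene per 1e6 counts of the library after its total is scaled by TMM, and fold changes are log2 of pachytene over day 7 with their standard errors (SE). Replicates were further apart in pachytene than at day 7, with an SD of the log2 difference between replicates over genes of 0.968 and 0.304. The labels call the replicates biological but do not say which animals they came from, so p-values measure the spread between libraries. That spread was pooled in the fit over all RNA libraries, and is not that of the day 7 and pachytene libraries alone. The same SD was 0.42 for day 1 testis, 0.63 for day 3 testis and 1.17 for the leptotene/zygotene fraction. Both pachytene libraries held the pachytene markers and also transcripts of spermatids, the haploid cells that follow meiosis. The libraries labelled leptotene/zygotene held the pachytene markers at a summed 18745 and 22400 CPM, against 16966 and 18659 CPM in pachytene, and spermatid transcripts at higher levels than the pachytene libraries did. Gene by gene, 5 of the 18 pachytene markers were higher in pachytene than in those libraries and none lower. Over all genes tested, 9.03% were higher and 13.2% lower. The 14 markers of leptotene and zygotene summed to 590 and 567 CPM in those libraries, against 1072.5 and 1000 CPM in pachytene. Their cell content was not tested, so differences from that fraction are not read below as differences between stages.

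Most genes differed between the groups. Of 16872 genes tested, 12680 (75.2%) passed at an adjusted p of 0.05 (edgeR's quasi-likelihood test, Benjamini-Hochberg adjustment), 5920 of them higher in pachytene (35.1% of genes tested) and 6760 lower (40.1%). The libraries of both groups did not overlap for 15155 genes (89.8%). The changes were large, with a median log2 fold change of 3.16 among the genes that rose and -2.94 among those that fell, and 2478 genes rose and 1915 fell by over 16-fold. With a size factor that takes library size alone, 33.9% of the calls were higher in place of 46.7%, and the median over all genes moved from -0.27 to -1.10. In bulk RNA, fewer cells of a type and less RNA per cell cannot be told apart, so a fall below means a smaller share of the RNA.

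A set of 738 tested genes had no count in either day 7 library, and 351 of them reached 10 CPM or more in pachytene. Of the 12 largest rises, all but Prm2 were of that kind. Pabpc2, an intronless relative of the poly(A)-binding protein gene, stood at 3209.9 and 2118 CPM in pachytene, at least 29340.0-fold higher than the floor of 3 counts over both day 7 libraries. Crisp2, a secretory-type protein of the acrosome and sperm tail, stood at 2159 and 2112 CPM, at least 24441-fold higher. The others were Spata4, Spz1, Gykl1, Cmtm2b, Hrasls5, Mroh4, Prm2 and the uncharacterised 4922502D21Rik, 1700008K24Rik and 4930571K23Rik. In the other direction, 365 genes had no count in pachytene, of which 22 had been at 10 CPM or more at day 7. Among the 12 largest falls were the mesenchymal transcription factor gene Twist1 (17.8 and 20.6 CPM at day 7, at least 77.8-fold lower), C1qtnf7 (25.4 and 27.8 CPM, at least 108-fold lower), Mafa, Mapk13, Lgals7, Ggt5, Cpz, Mdfi, Hrk, Abcb5 and 2810410L24Rik. The ribosomal protein gene Rps18 was also among them, but reads of such genes can be split with near-identical copies and its value is uncertain.

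No gene was among the 10 with the most counts in both groups. At day 7 these included the matrix genes Sparc, Col1a2 and Col3a1, the secreted chaperone gene Clu and the heat shock gene Hsp90ab1. In pachytene they included Fhl4, Slc2a3, Ldhc, Hspa2, Dnahc8, Akap12, Tdrd6, Atp8b3 and Phf7. Slc2a3, the gene of the glucose transporter GLUT3, was at 18.2 and 21.2 CPM at day 7 and 6756 and 5692 CPM in pachytene (log2 fold change 8.30 ± 0.43 SE, adjusted p = 5.9e-07). Phf7, which encodes a PHD-finger protein of male germ cells, was at 13.7 and 11.2 CPM at day 7 and 3197 and 3461 CPM in pachytene (log2 fold change 8.06 ± 0.45 SE, adjusted p = 7e-07). Atp8b3, a lipid flippase gene of the testis, was at 1.93 and 2.09 CPM at day 7 and 3018 and 4125 CPM in pachytene (log2 fold change 10.79 ± 0.87 SE, adjusted p = 3.6e-06). Libraries of both groups were far apart for each of these genes. The translation factor genes Eef1a1 and Eef2, also among those with the most counts at day 7, did not pass the test (0.38 ± 0.51 and 0.68 ± 0.32 on the log2 scale), though Eef2 did so as higher with DESeq2 (adjusted p = 6.3e-07), with median-ratio factors (0.011), with the 4 libraries alone (0.021), without the leptotene/zygotene libraries (0.027) and without day 3 replicate 1, day 3 replicate 2 or leptotene/zygotene replicate 1 (adjusted p = 0.019, 0.019 and 0.04).

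**Figure D1:**
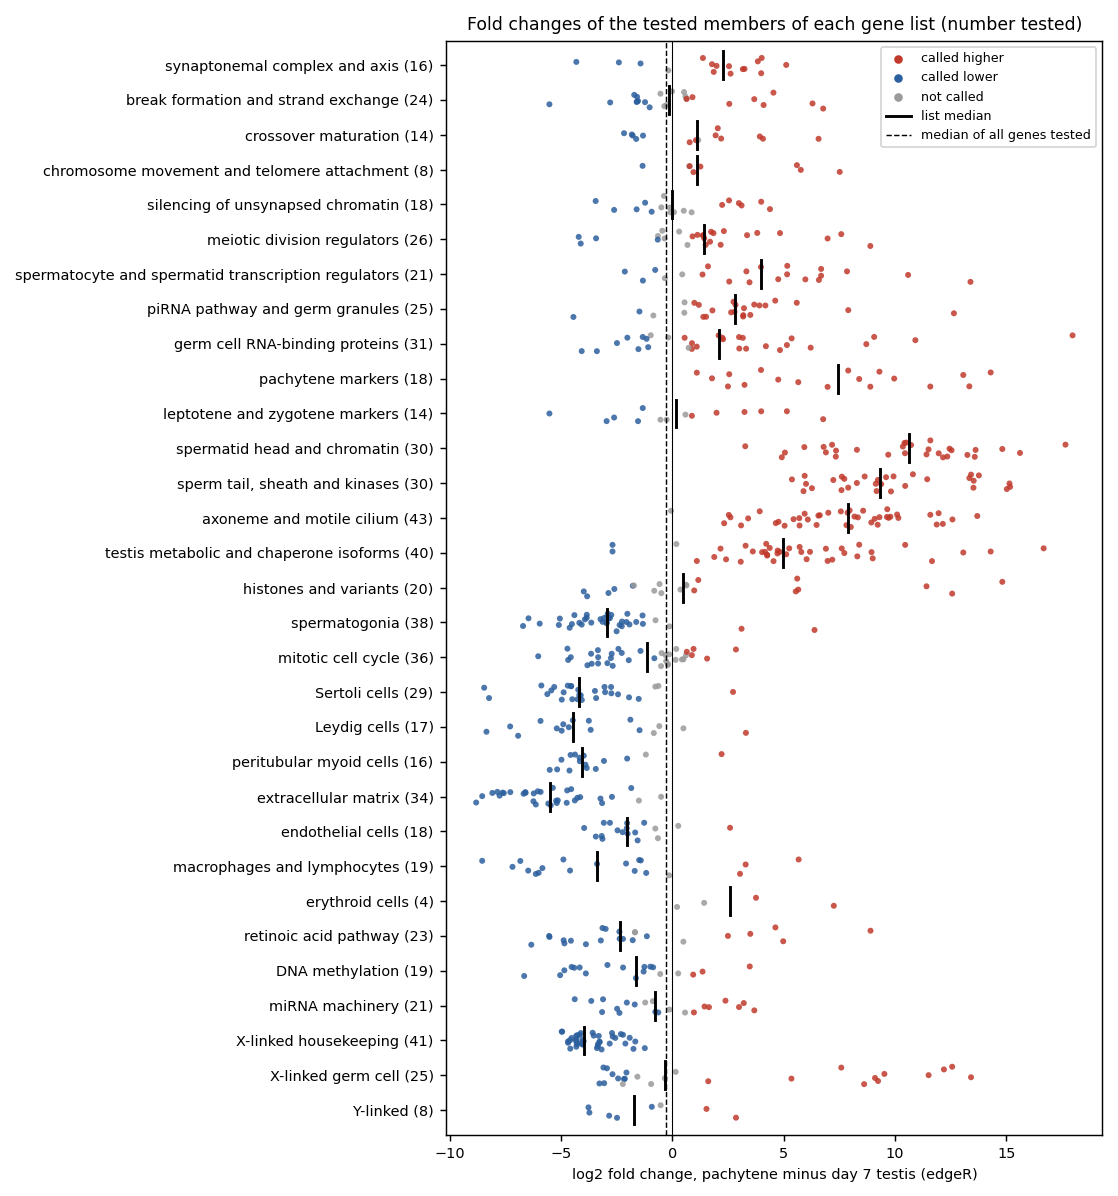
Log2 fold change of pachytene over day 7 testis for each tested member of 31 gene lists, 1 point a gene, coloured by the edgeR call at an adjusted p of 0.05; black bars are list medians and the dashed line is the median of all genes tested (-0.27). Lists of pachytene markers, spermatid, tail and axoneme genes lie almost wholly to the right, and those of somatic cells, matrix and X-linked housekeeping genes almost wholly to the left.

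All 18 pachytene markers rose, against 35.1% of genes tested. Their median log2 fold change was 7.43 and their summed level went from 297 and 254 CPM to 16966 and 18659 CPM. Piwil1, which encodes the PIWI protein that binds pachytene piRNAs, was at 5.41 and 4.48 CPM at day 7 and 895 and 1467 CPM in pachytene (log2 fold change 7.90 ± 0.39 SE, adjusted p = 5.4e-07). Ldhc, the gene of the germ cell lactate dehydrogenase subunit, was at 0.221 and 0.246 CPM at day 7 and 4165 and 5589.5 CPM in pachytene (log2 fold change 14.29 ± 1.27 SE, adjusted p = 6.6e-06). Hspa2, the heat shock protein gene needed for the end of meiotic prophase, was at 32.9 and 33.2 CPM at day 7 and 4456 and 3827 CPM in pachytene (log2 fold change 6.97 ± 0.36 SE, adjusted p = 5.8e-07). In each of the 3 genes both pachytene libraries were more than 100-fold above both day 7 libraries. Adam2, a subunit gene of the sperm surface protein fertilin, had 2 counts over both day 7 libraries and 8932 in pachytene, a ratio of 12617 (95% interval 3492 to 104200.0). Pou5f2 rose from 0.276 and 0.0614 to 169 and 197 CPM and the cyclin gene Ccna1 from 0.717 and 0.43 to 248 and 310.0 CPM. The histone gene Hist1h1t had 2 counts at day 7 and 42 in pachytene (ratio 59.3 (95% interval 15.4 to 506)), and reads of histone genes that lack a poly(A) tail may be few in such libraries. The smallest rises were in Slc25a31 and Sycp1, and both calls rest on single libraries. Slc25a31 did not pass without day 7 replicate 2 or pachytene replicate 1 (adjusted p = 0.088 and 0.063), nor Sycp1 without day 7 replicate 2 or pachytene replicate 2 (adjusted p = 0.06 and 0.18).

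The promoters of Piwil1, Ldhc and Hspa2 are shown because MYBL1 (A-MYB), the transcription factor that acts in pachytene cells, binds the letters TAACNG. The sequences are the 250 bases before the annotated start in the direction of the gene, from RefSeq on GRCm38.p6, and capitals mark TAACNG on either strand.
Piwil1 (chr5:128735996-128736245, + strand): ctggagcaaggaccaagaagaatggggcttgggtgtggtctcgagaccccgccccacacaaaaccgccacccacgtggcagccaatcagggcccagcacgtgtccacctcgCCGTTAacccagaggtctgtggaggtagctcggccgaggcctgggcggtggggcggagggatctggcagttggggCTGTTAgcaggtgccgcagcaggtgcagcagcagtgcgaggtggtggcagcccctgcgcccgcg
Ldhc (chr7:46861013-46861262, + strand): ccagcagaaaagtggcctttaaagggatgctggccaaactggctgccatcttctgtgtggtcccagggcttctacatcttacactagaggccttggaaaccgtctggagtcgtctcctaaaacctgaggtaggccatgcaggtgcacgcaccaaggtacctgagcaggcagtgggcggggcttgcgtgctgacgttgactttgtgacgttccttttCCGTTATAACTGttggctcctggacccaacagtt
Hspa2 (chr12:76404120-76404369, + strand): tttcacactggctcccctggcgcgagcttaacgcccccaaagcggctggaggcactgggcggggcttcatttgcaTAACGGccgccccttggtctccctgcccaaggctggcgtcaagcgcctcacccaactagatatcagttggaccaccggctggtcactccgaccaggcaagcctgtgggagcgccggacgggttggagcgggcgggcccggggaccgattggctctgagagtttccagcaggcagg
In Piwil1 the marked letters begin 139 and 64 bases before the start, in Ldhc 34 and 28 bases, the pair lying end to end, and in Hspa2 175 bases. The Ldhc sequence belongs to the first of 2 starts in the table. The promoter of Pgk2, another pachytene marker printed further below, holds no TAACNG, and those of the other pachytene markers are not shown. Mybl1 itself was at 29.1 and 25.6 CPM at day 7 and 162.6 and 158 CPM in pachytene (log2 fold change 2.55 ± 0.28 SE, adjusted p = 2.5e-05). It was also above the libraries labelled leptotene/zygotene (log2 difference 1.05 ± 0.27 SE, adjusted p = 0.023). Of the genes tested, 12276 of 16872 had a promoter in the table. TAACNG stood in 26.9% of the promoters of genes that rose by over 16-fold (1694 promoters), in 17.9% of those of genes that fell as far (1333 promoters), in 25.3% of those of X-linked genes called lower (379 promoters), in 20.2% of all genes tested and in 22.3% of all 27025 genes of the table. The letters GTTNCC, part of the site of RFX factors, stood in 48.6%, 41.6%, 46.7%, 45.7% and 42.8% of these, and TGACGTCA, the site of CREM and its relatives, in 2.54%, 1.28%, 1.85%, 2.76% and 1.77%. GTTNCC and the reverse strand of TAACNG share the letters GTTA and can overlap. The median ratio of observed to expected CG pairs was 0.316 in promoters of the genes that rose by over 16-fold, 0.538 in those of genes that fell as far, 0.678 over all genes tested and 0.378 over all genes of the table. A match of letters is a description of the sequence and not a bound site.

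**Figure D2:**
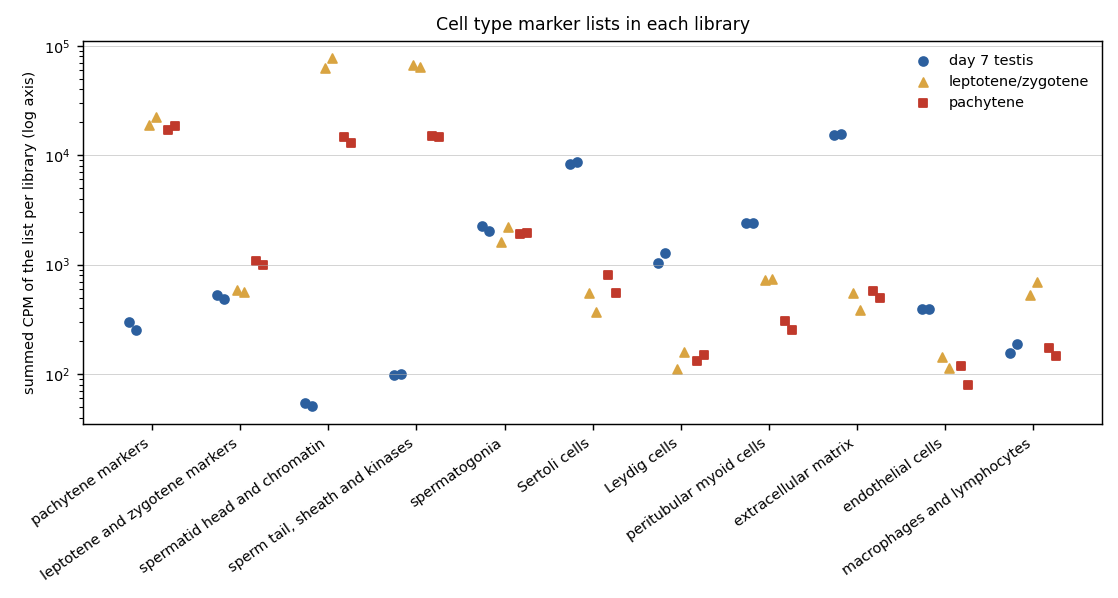
Summed CPM of the marker lists in each library (log axis), 1 point a library, for day 7 testis, the fraction labelled leptotene/zygotene and pachytene. Pachytene markers reach 16966 and 18659 CPM in pachytene, spermatid head genes 14537 and 12803 CPM, and matrix genes fall from 15200 and 15675 CPM to 571 and 499 CPM.

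Among the genes of the synaptonemal complex and chromosome axis, 12 of 16 rose and 3 fell (75% and 18.75%, against 35.1% and 40.1% of genes tested; median log2 fold change 2.26). Sycp2, of the lateral elements, was at 29.6 and 28.7 CPM at day 7 and 200.01 and 631 CPM in pachytene (log2 fold change 3.84 ± 0.55 SE, adjusted p = 0.00014). Sycp3, of the same elements, was at 18.2 and 17.6 CPM at day 7 and 126 and 211 CPM in pachytene (log2 fold change 3.24 ± 0.40 SE, adjusted p = 5.7e-05). Syce1, of the central element, was at 14.95 and 11.4 CPM at day 7 and 384 and 526 CPM in pachytene (log2 fold change 5.11 ± 0.43 SE, adjusted p = 4.9e-06). Hormad1, an axis protein gene, rose from 3.92 and 4.18 to 68.8 and 59.7 CPM, and Stag3, a meiotic cohesin gene, from 78.8 and 69.2 to 543 and 779.5 CPM. For these 5 genes every pachytene library was above every day 7 library; 89.8% of genes tested did not overlap. Sycp1, the transverse filament gene, was uneven in pachytene, at 37.5 and 34.4 CPM at day 7 and 60.2 and 185 CPM in pachytene (log2 fold change 1.78 ± 0.53 SE, adjusted p = 0.011). The 3 that fell were the cohesin genes Smc1a, Smc3 and Rad21l. The low Rad21l fell from 2.59 and 1.84 to 0.407 and 0.413 CPM, a call lost without day 7 replicate 1 or pachytene replicate 2 (adjusted p = 0.057 and 0.061). Rec8, the meiotic cohesin kleisin gene, rose from 8.88 and 8.78 to 21.8 and 47.6 CPM, a call lost without day 7 replicate 2 or pachytene replicate 2 (adjusted p = 0.05 and 0.1). That of Sycp1 was lost without day 7 replicate 2 or pachytene replicate 2 (adjusted p = 0.06 and 0.18).

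Cohesin, the ring that holds sister chromatids together, had subunit genes that moved in opposite directions. Smc1b, the meiotic copy, was at 44.1 and 44.5 CPM at day 7 and 231 and 310.4 CPM in pachytene (log2 fold change 2.61 ± 0.50 SE, adjusted p = 0.00097). Its X-linked counterpart Smc1a was at 106 and 100.99 CPM at day 7 and 7.32 and 3.30 CPM in pachytene (log2 fold change -4.32 ± 0.47 SE, adjusted p = 2.2e-05). Stag3 rose and its X-linked counterpart Stag2 fell from 118 and 113.95 to 20.96 and 23.1 CPM (log2 fold change -2.39 ± 0.25 SE, adjusted p = 1.8e-05). Rad21, the mitotic counterpart of Rec8, fell from 401 and 391 to 68.6 and 42.7 CPM (log2 fold change -2.83 ± 0.28 SE, adjusted p = 1.2e-05). All 3 mitotic partners fell, with log2 fold changes from -2.39 to -4.32.

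Genes of break formation and strand exchange were called about as often as genes at large: 8 of 24 rose and 9 fell (33.3% and 37.5%, against 35.1% and 40.1% of genes tested). Their median log2 fold change of -0.14 became 0.14 with median-ratio factors. Spo11, whose product makes the breaks, was at 0.828 and 0.614 CPM at day 7 and 43.5 and 116 CPM in pachytene (log2 fold change 6.77 ± 0.88 SE, adjusted p = 7.4e-05). Hsf2bp, a partner of BRCA2, was at 4.41 and 5.22 CPM at day 7 and 100.7 and 123 CPM in pachytene (log2 fold change 4.54 ± 0.33 SE, adjusted p = 2.1e-06). Meiob, a single-strand DNA-binding protein gene, was at 0.441 and 0 CPM at day 7 and 15.7 and 21.8 CPM in pachytene (log2 fold change 6.29 ± 0.74 SE, adjusted p = 4e-05). Mei4, needed for break formation, ran the other way with 148 counts over both day 7 libraries and 1 in pachytene (ratio 0.0191 (95% interval 0.00048 to 0.108)). Dmc1, the strand exchange gene that marks earlier cells, was at 9.93 and 10.1 CPM at day 7 and 5.29 and 1.79 CPM in pachytene (log2 fold change -1.55 ± 0.49 SE, adjusted p = 0.016). That call was lost without day 7 replicate 1, day 7 replicate 2 or pachytene replicate 2 (adjusted p = 0.059, 0.06 and 0.095). The kinase gene Atm fell from 120.3 and 117 to 22.8 and 11.6 CPM (log2 fold change -2.80 ± 0.44 SE, adjusted p = 0.00026). Brca2 and Tex15 were at log2 fold changes of 0.52 ± 0.42 and -0.02 ± 0.44 and did not pass the test.

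Of 14 crossover genes, 8 rose and 5 fell (57.1% and 35.7%, against 35.1% and 40.1% of genes tested; median 1.11). Cntd1, which acts late in crossover designation, was at 2.87 and 2.95 CPM at day 7 and 279.8 and 272 CPM in pachytene (log2 fold change 6.56 ± 0.40 SE, adjusted p = 9.4e-07). It was above the libraries labelled leptotene/zygotene too (log2 difference 1.32 ± 0.31 SE, adjusted p = 0.016). The helicase gene Hfm1 was at 4.08 and 4.12 CPM at day 7 and 51.3 and 86.0 CPM in pachytene (log2 fold change 4.07 ± 0.37 SE, adjusted p = 7.4e-06). Msh4, which stabilises recombination intermediates, was at 1.27 and 1.23 CPM at day 7 and 16.5 and 21.6 CPM in pachytene (log2 fold change 3.92 ± 0.39 SE, adjusted p = 1.2e-05). Mlh3, whose protein acts in the resolution of crossovers, rose from 34.7 and 35.6 to 186 and 134 CPM. The mismatch repair gene Pms2 fell from 24.4 and 24.4 to 7.73 and 6.47 CPM. X-linked Tex11 fell from 31.1 and 29.9 to 8.55 and 5.09 CPM, a call lost without pachytene replicate 2 (adjusted p = 0.051). At the telomeres, 6 of 8 genes rose and Sun2 fell (75% and 12.5%, against 35.1% and 40.1% of genes tested). Spdya, the activator of CDK2 there, was at 0.717 and 1.47 CPM at day 7 and 227 and 174 CPM in pachytene (log2 fold change 7.51 ± 0.41 SE, adjusted p = 6.7e-07). Ccdc79 (Terb1), which anchors telomeres, rose from 1.27 and 1.23 to 60.6 and 76.1 CPM, and Ccdc155 (Kash5), which links them to motors, from 1.66 and 1.97 to 51.3 and 123 CPM. With plain library sizes 5 of the crossover genes and 3 of the telomere genes still passed as higher.

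Of 18 genes of the silencing of unsynapsed chromatin, 6 rose, 5 fell and 7 did not pass (33.3% higher and 27.8% lower, against 35.1% and 40.1% of genes tested), with a median of -0.01 that became 0.26 with median-ratio factors. Genes of DNA damage signalling on the sex chromosomes, Atr and Mdc1, were among those that rose. Atr, the kinase gene, was at 96.1 and 92.0 CPM at day 7 and 872 and 746 CPM in pachytene (log2 fold change 3.10 ± 0.34 SE, adjusted p = 2.6e-05). Mdc1, the adaptor that spreads the signal, was at 149.6 and 135 CPM at day 7 and 1255 and 998 CPM in pachytene (log2 fold change 2.98 ± 0.33 SE, adjusted p = 2.7e-05). The ubiquitin ligase gene Ubr2 fell from 133 and 137 to 12.8 and 11.8 CPM (log2 fold change -3.45 ± 0.31 SE, adjusted p = 6.5e-06), as did Brca1 from 79.2 and 68.0 to 24.4 and 23.8 CPM. H2afx, whose phosphorylated product marks the sex body, was at 94.0 and 78.1 CPM at day 7 and 58.6 and 63.1 CPM in pachytene and did not pass (adjusted p = 0.21, but 0.0039 and lower with plain library sizes and 0.043 with upper-quartile factors).

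Regulators of the meiotic divisions rose in 17 of 26 cases (65.4%, against 35.1% of genes tested), with 4 lower and a median of 1.40. Ccna1, the germ cell A-type cyclin, was at 0.717 and 0.43 CPM at day 7 and 248 and 310.0 CPM in pachytene (log2 fold change 8.89 ± 0.39 SE, adjusted p = 5.4e-07). Fbxo43, which restrains the anaphase-promoting complex, was at 0.607 and 0.737 CPM at day 7 and 113 and 147 CPM in pachytene (log2 fold change 7.58 ± 0.34 SE, adjusted p = 5.4e-07). The kinase genes Nek2 and Aurka rose from 64.8 and 53.3 to 1005 and 649 CPM and from 40.2 and 33.8 to 419 and 336 CPM, and the low Aurkc from 0.11 and 0.307 to 5.29 and 6.88 CPM. Ccna2, the somatic A-type cyclin, fell from 129 and 119 to 10.8 and 12.1 CPM (log2 fold change -3.43 ± 0.30 SE, adjusted p = 6.5e-06), and Cdc25b and Sgol1 fell by similar amounts (-4.12 ± 0.43 and -4.21 ± 0.44). Cdk1 and Ccnb1, the core of the M-phase kinase, were at -0.36 ± 0.29 and 0.67 ± 0.47 and did not pass. Cdk1 passed as lower with plain library sizes (log2 fold change -1.18, adjusted p = 0.0031). Without pachytene replicate 2 the log2 fold change of Ccnb1 was 1.25.

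The genes of the mitotic cycle ran the other way, with 19 of 36 lower against 40.1% of genes tested, 5 higher and a median of -1.13. Pcna and Rrm1 passed as higher. Both calls were lost with plain library sizes (log2 fold change 0.12 and 0.04, adjusted p = 0.64 and 0.87). The replication licensing genes Mcm2, Mcm3, Mcm4, Mcm5, Mcm6 and Mcm10 and Cdt1 fell, but Mcm7, of the same helicase as Mcm2, and the loading factor gene Cdc6 did not pass (0.60 ± 0.31 and -0.31 ± 0.26). Mcm7 passed as higher with DESeq2 (adjusted p = 0.0041), with median-ratio factors (0.014), with the 4 libraries alone (0.034) and without either or both of the leptotene/zygotene libraries (0.012 to 0.019), and Cdc6 as lower with plain library sizes (0.0015) and upper-quartile factors (0.039). Mcm2 went from 198 and 182 to 11.6 and 3.58 CPM (log2 fold change -4.69 ± 0.48 SE, adjusted p = 1.6e-05) and Cdt1 from 55.9 and 50.8 to 2.65 and 1.51 CPM (log2 fold change -4.72 ± 0.35 SE, adjusted p = 2.3e-06). Mycn, a growth regulator of dividing cells, fell from 89.9 and 91.4 to 2.44 and 0.551 CPM (log2 fold change -6.03 ± 0.52 SE, adjusted p = 5.4e-06), and Tyms, for thymidylate synthesis, from 28.9 and 28.5 to 2.03 and 0.551 CPM. Chaf1a, which loads histones at replication forks, was the exception by size, at 66.8 and 64.5 CPM at day 7 and 471 and 476 CPM in pachytene (log2 fold change 2.85 ± 0.25 SE, adjusted p = 6.6e-06). Mki67, the widely used proliferation marker, was at 430.2 and 348 CPM at day 7 and 119.8 and 79.8 CPM in pachytene (log2 fold change -1.96 ± 0.48 SE, adjusted p = 0.0041). Its transcript was thus still present in the pachytene libraries, and which cells of the fraction held it was not tested.

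Transcription regulators of spermatocytes and spermatids rose in 16 of 21 cases (76.2%, against 35.1% of genes tested), with 3 lower and a median of 3.98. Gtf2a1l, the germ cell form of a TFIIA subunit, had 1 count over both day 7 libraries and 5178 in pachytene (ratio 14628 (95% interval 2624 to 577890.0)), and Rfx4 had 3 and 1860 (ratio 1752 (95% interval 598 to 8501)). Zfp541, which acts in late meiotic prophase, was at 3.59 and 3.50 CPM at day 7 and 796 and 833 CPM in pachytene (log2 fold change 7.84 ± 0.44 SE, adjusted p = 7.3e-07). Rfx2, a regulator of cilium and spermatid genes, was at 7.45 and 5.77 CPM at day 7 and 569 and 787 CPM in pachytene (log2 fold change 6.68 ± 0.45 SE, adjusted p = 1.5e-06). Sox30 rose from 1.88 and 2.27 to 216 and 209.9 CPM, Tcfl5 from 23.3 and 19.8 to 793 and 739.9 CPM and Ovol1 from 2.59 and 1.97 to 156 and 131 CPM. Crem, a driver of spermatid genes, was at 9.27 and 8.5999 CPM at day 7 and 223 and 258 CPM in pachytene (log2 fold change 4.75 ± 0.33 SE, adjusted p = 1.9e-06). Tbpl1, a relative of the TATA-binding protein gene, was at 44.1 and 38.9 CPM at day 7 and 619.8 and 687 CPM in pachytene (log2 fold change 3.98 ± 0.32 SE, adjusted p = 3.8e-06). The 3 that fell were Taf7l, which is X-linked and went from 100.8 and 83.2 to 32.6 and 9.64 CPM, Taf4b and Brwd1. The call of Taf4b was lost without day 7 replicate 1 or pachytene replicate 2 (adjusted p = 0.062 and 0.078) and that of Brwd1 without day 7 replicate 1, day 7 replicate 2 or pachytene replicate 2 (adjusted p = 0.1, 0.072 and 0.11).

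In the piRNA pathway 20 of 25 genes rose (80.0%, against 35.1% of genes tested) and 2 fell, with a median of 2.79. Tdrd6, a tudor protein gene of the chromatoid body, was at 0.497 and 0.676 CPM at day 7 and 4550.2 and 3038 CPM in pachytene (log2 fold change 12.64 ± 0.94 SE, adjusted p = 2.4e-06). Mael, Ddx4 and Ddx25, of the germ granules, rose from 64.5 and 55.2 to 1312 and 1623 CPM, from 109 and 96.8 to 938 and 919 CPM and from 16.8 and 15.8 to 691 and 874 CPM. Pld6, which makes piRNA ends, rose from 17.7 and 15.8 to 198 and 230.3 CPM, Henmt1, which methylates the 3′ end, from 9.32 and 11.9 to 91.6 and 100.4 CPM, and Tdrd5 from 27.4 and 24.1 to 281 and 302 CPM. Every pachytene library of these genes was above every day 7 library, and 89.8% of genes tested did not overlap between the groups. Piwil2, active from spermatogonia onward, rose less (log2 fold change 1.51 ± 0.37 SE, adjusted p = 0.0041). That call was lost with plain library sizes (log2 fold change 0.68, adjusted p = 0.12). Piwil4, the PIWI gene of fetal germ cells, had 195 counts over both day 7 libraries and 3 in pachytene (ratio 0.0435 (95% interval 0.00889 to 0.129)), and Fkbp6 fell from 87.1 and 82.8 to 28.7 and 32.1 CPM. Gtsf1 was uneven, at 22.6 and 166 CPM in pachytene, and its call was lost without pachytene replicate 2 (adjusted p = 0.097).

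The same pathway also set pachytene apart from the fraction labelled leptotene/zygotene, with 9 of 25 genes higher in pachytene and none lower, where 9.03% of genes tested were higher and 13.2% lower. With plain library sizes 17 were higher, and leaving out a library gave 7 to 10. Piwil1 stood at 129 ± 11.9 CPM (SD, n = 2) in those libraries and was higher in pachytene (log2 difference 3.20 ± 0.31 SE, adjusted p = 0.00076). Tdrd1, of the germ granules, stood at 94.2 ± 9.199 CPM (SD, n = 2) there and was also higher in pachytene (log2 difference 2.67 ± 0.37 SE, adjusted p = 0.0019). Pld6 and Tdrd5 were higher (log2 difference 2.27 ± 0.27 SE, adjusted p = 0.0011) and (log2 difference 3.01 ± 0.36 SE, adjusted p = 0.0011). Tdrd6, Ddx4 and Mael did not pass in that comparison.

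**Figure D3:**
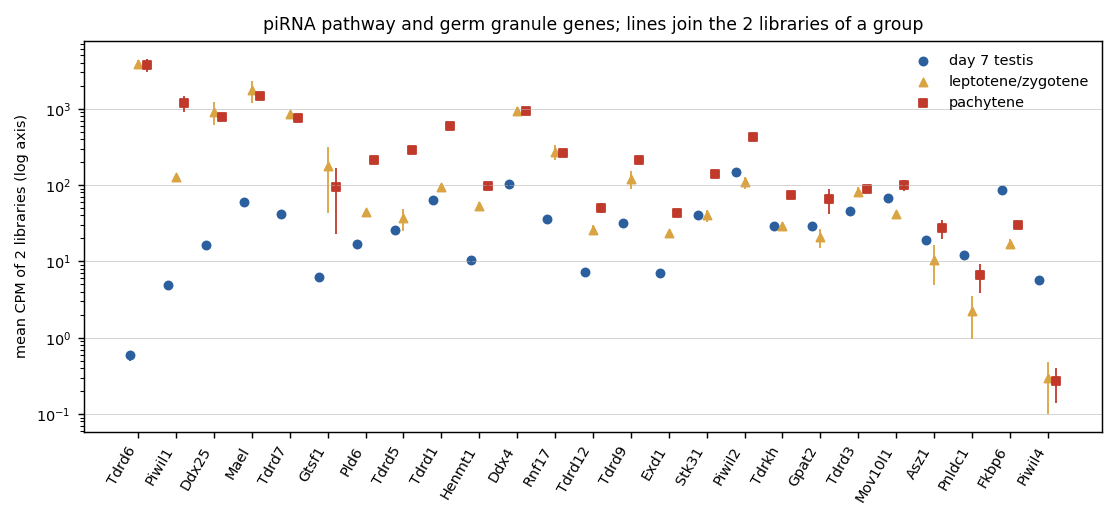
Mean CPM (log axis) of the 25 piRNA pathway and germ granule genes in day 7 testis, the fraction labelled leptotene/zygotene and pachytene; lines join the 2 libraries of a group. Of these genes 20 are higher and 2 lower in pachytene than at day 7, with Tdrd6 and Piwil1 farthest apart.

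Of 31 RNA-binding protein genes of germ cells, 20 rose and 8 fell (64.5% and 25.8%, against 35.1% and 40.1% of genes tested; median 2.07). Ybx2 (MSY2), which coats stored transcripts, was at 4.03 and 3.81 CPM at day 7 and 1459.9 and 2734 CPM in pachytene (log2 fold change 9.06 ± 0.58 SE, adjusted p = 1.1e-06). Its relative Csda was at 68.7 and 68.7 CPM at day 7 and 2462 and 3151 CPM in pachytene (log2 fold change 5.35 ± 0.43 SE, adjusted p = 3.4e-06). Papolb, the testis poly(A) polymerase, was at 5.13 and 3.62 CPM at day 7 and 2239.8 and 1434 CPM in pachytene (log2 fold change 8.71 ± 0.65 SE, adjusted p = 2.5e-06). The general Papola did not pass (-0.52 ± 0.24), but did so as lower with plain library sizes (adjusted p = 0.00029), with upper-quartile factors (0.0058), without the leptotene/zygotene libraries (0.038) and without leptotene/zygotene replicate 1 or leptotene/zygotene replicate 2 (adjusted p = 0.029 and 0.03). Pabpc6 rose from 1.16 and 1.04 to 2758 and 1527 CPM and the general Pabpc1 from 348 and 358 to 3220.1 and 3091 CPM. Adad1 and Boll, needed after and during the divisions, rose from 6.40 and 7.25 to 487 and 523 CPM and from 4.14 and 3.81 to 64.3 and 162 CPM. The genes that fell included Spin1, which went from 196 and 193 to 29.5 and 7.98 CPM, the translational repressor gene Pum2, from 233 and 227 to 107 and 98.4 CPM, and Nanos3, of early germ cells, from 4.91 and 4.67 to 1.42 and 0.964 CPM. Gm1564 (Meioc), the partner of Ythdc2 at meiotic entry, was at 12.6 and 14.9 CPM at day 7 and 548 and 424 CPM in pachytene (log2 fold change 5.14 ± 0.38 SE, adjusted p = 2.3e-06).

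Germ cell forms of metabolic and chaperone genes rose in 37 of 40 cases (92.5%, against 35.1% of genes tested), with 2 lower and a median of 4.96. In glycolysis, Pgk2 was at 0.0552 and 0.246 CPM at day 7 and 1741 and 938 CPM in pachytene (log2 fold change 13.06 ± 1.52 SE, adjusted p = 3.6e-05). Pgam2, a phosphoglycerate mutase gene, was at 0.772 and 0.799 CPM at day 7 and 949 and 1281 CPM in pachytene (log2 fold change 10.45 ± 0.51 SE, adjusted p = 5.4e-07). The hexokinase gene Hk1 was at 61.1 and 54.5 CPM at day 7 and 872 and 1190.0 CPM in pachytene (log2 fold change 4.16 ± 0.35 SE, adjusted p = 4.5e-06). In respiration, Cox8c rose from 1.10 and 1.35 to 488 and 726 CPM, Cox7b2 from 5.74 and 4.18 to 351 and 298 CPM and the testis cytochrome c gene Cyct from 6.84 and 7.06 to 132 and 126 CPM. Slc16a7, a lactate and pyruvate transporter gene, rose from 2.76 and 3.07 to 681 and 456 CPM. Of the chaperones, Clgn was at 3.92 and 3.38 CPM at day 7 and 974.8 and 1478 CPM in pachytene (log2 fold change 8.39 ± 0.59 SE, adjusted p = 1.9e-06). The heat shock gene Hspa4l was at 35.3 and 34.7 CPM at day 7 and 1156 and 1258 CPM in pachytene (log2 fold change 5.11 ± 0.33 SE, adjusted p = 1.3e-06). Dnajb3, a cochaperone gene, was at 6.79 and 5.71 CPM at day 7 and 925 and 889 CPM in pachytene (log2 fold change 7.18 ± 0.41 SE, adjusted p = 7.7e-07). The testis proteasome gene Psma8 rose from 9.10 and 8.11 to 652 and 299.99 CPM (log2 fold change 5.79 ± 0.56 SE, adjusted p = 1.1e-05). Its general counterpart Psma7 fell from 90.4 and 89.1 to 5.29 and 7.57 CPM (log2 fold change -3.79 ± 0.33 SE, adjusted p = 6.1e-06). The tubulin genes Tuba3a and Tuba3b also rose, but are near-identical and their split is uncertain. The 2 that fell were Gk5 and the X-linked Tktl1.

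Over 12 pairs of a testis isoform and its autosomal counterpart, all 12 testis genes rose, against 35.1% of genes tested. Of the counterparts 5 fell, 2 rose, 4 did not pass and 1, Gapdh, was not tested, and 40.1% of genes tested fell. Gapdh had no count in the 4 libraries, and Eno1 and Cycs were low at day 7, at 0.967 and 2.95 CPM on average. Reads of such genes can be shared with near-identical copies, so these levels are uncertain. Ldha, the counterpart of Ldhc, rose as well from 89.8 and 83.4 to 1985 and 1686 CPM (log2 fold change 4.41 ± 0.33 SE, adjusted p = 2.6e-06). Cox6b1 fell from 56.5 and 54.4 to 3.66 and 6.33 CPM as Cox6b2 rose from 9.82 and 9.89 to 102 and 305 CPM, and Slc25a4 fell from 131 and 147 to 17.1 and 7.16 CPM. Cycs, the general cytochrome c gene, passed as lower but not without pachytene replicate 2 (adjusted p = 0.075). The rise of Hspa4, the counterpart of Hspa4l, was lost without day 7 replicate 1 or pachytene replicate 2 (adjusted p = 0.056 and 0.071). The fall of Aldoa, the counterpart of Aldoart1, was lost without day 7 replicate 1, day 7 replicate 2 or pachytene replicate 1 (adjusted p = 0.088, 0.063 and 0.067). In 7 further pairs of genes used at different stages or in general transcription, all 7 germ cell genes rose, against 35.1% of genes tested. Of their partners 4 rose (Tbp, Gtf2a1, Ybx1 and Pabpc1) and 2 were lower (Piwil4 and Ccna2). Tbp went from 33.5 and 30.9 to 271 and 326 CPM (log2 fold change 3.21 ± 0.25 SE, adjusted p = 2.8e-06) beside the rise of Tbpl1. Ybx1 went from 152 and 147 to 1395 and 1053 CPM (log2 fold change 3.03 ± 0.29 SE, adjusted p = 1.1e-05) beside that of Ybx2. The rise of Gtf2a1 was lost without day 7 replicate 1, day 7 replicate 2 or pachytene replicate 1 (adjusted p = 0.054, 0.078 and 0.067).

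Genes of later sperm structures were high in the pachytene libraries. All 30 genes of the spermatid head and chromatin rose, against 35.1% of genes tested. Their median was 10.61 (10.02 where genes absent at day 7 are taken at their lower bound). Their summed level went from 54.1 and 50.8 CPM to 14537 and 12803 CPM. Acr, the acrosomal protease proacrosin, was at 0.221 and 0.184 CPM at day 7 and 340.4 and 379 CPM in pachytene (log2 fold change 10.72 ± 0.58 SE, adjusted p = 6.4e-07). Dpy19l2, needed for head shape, was at 0.166 and 0.553 CPM at day 7 and 559 and 488 CPM in pachytene (log2 fold change 10.50 ± 0.52 SE, adjusted p = 5.4e-07). Zpbp2, of the acrosome, was at 0.386 and 0.676 CPM at day 7 and 673 and 725 CPM in pachytene (log2 fold change 10.35 ± 0.52 SE, adjusted p = 5.6e-07). The protamine gene Prm1, which packs sperm DNA, was at 0.276 and 0.0614 CPM at day 7 and 775 and 688 CPM in pachytene (log2 fold change 11.96 ± 1.497 SE, adjusted p = 5.8e-05). The transition protein gene Tnp1 was at 0.221 and 0.0614 CPM at day 7 and 850.1 and 562 CPM in pachytene (log2 fold change 12.15 ± 1.40 SE, adjusted p = 3.4e-05). Prm2 had 1 count over both day 7 libraries and 22695 in pachytene (ratio interval 11506 to 2532500.0). These last genes are known as transcripts of spermatids.

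All 30 genes of the sperm tail, sheath and kinases rose too, against 35.1% of genes tested (median 9.30). Odf1, of the outer dense fibres, had 2 counts at day 7 and 9533 in pachytene (ratio 13466 (95% interval 3727 to 111210.0)), and Odf4 had none at day 7 and 369.7 and 391.5 CPM in pachytene. Akap3, of the fibrous sheath, was at 0.497 and 0.43 CPM at day 7 and 994 and 701 CPM in pachytene (log2 fold change 10.80 ± 0.74 SE, adjusted p = 1.6e-06). Ropn1l rose from 2.04 and 2.09 to 848 and 1481 CPM and the calcium channel gene Catsper2 from 3.31 and 2.83 to 498 and 691 CPM. The axoneme, the moving core of the tail, rose in 42 of 43 cases (97.7%, against 35.1% of genes tested), with a median of 7.87. The dynein heavy chain gene Dnahc8 was at 11.2 and 8.97 CPM at day 7 and 3625 and 4018 CPM in pachytene (log2 fold change 8.56 ± 0.78 SE, adjusted p = 7.8e-06). Dnahc17, another, was at 2.98 and 3.13 CPM at day 7 and 1209 and 1785 CPM in pachytene (log2 fold change 8.93 ± 0.52 SE, adjusted p = 8.5e-07). Zmynd10 and Dnaaf1, which assemble dynein arms, rose from 0.221 and 0.0614 to 413 and 748 CPM and from 6.23 and 5.59 to 1239.9 and 1815 CPM. Hydin and Spag17, of the central pair, rose from 1.71 and 2.15 to 504 and 615 CPM and from 0.993 and 1.11 to 768 and 931 CPM, and Foxj1, the regulator of motile cilia, from 1.49 and 1.23 to 113 and 156 CPM. Dnahc11 did not pass (-0.07 ± 0.66), and the call of Dnahc5 was lost without day 7 replicate 1 or pachytene replicate 2 (adjusted p = 0.051 and 0.29).

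The axoneme list differed little between pachytene and the fraction labelled leptotene/zygotene, with 4 of 43 lower in pachytene and none higher, whereas 14 of 30 head genes and 19 of 30 tail genes were lower, against 13.2% of all genes tested. Summed head genes stood at 63100 and 77131 CPM in the libraries labelled leptotene/zygotene. Tnp1 stood there at 7713 ± 909 CPM (SD, n = 2) and was lower in pachytene (log2 difference -3.45 ± 0.89 SE, adjusted p = 0.023). Prm1 stood at 8050.5 ± 3608 CPM (SD, n = 2) and was lower in pachytene too (log2 difference -3.46 ± 0.96 SE, adjusted p = 0.03). The counts of lower genes depend on the fit and on single libraries. Against a 2-fold minimum they were 4 and 6, and with plain library sizes 11 and 10. Both fell when any day 1, day 7 or pachytene library or leptotene/zygotene replicate 2 was left out. Both were larger without leptotene/zygotene replicate 1. The part that spermatid RNA had in the rise of these genes over day 7 was not tested.

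Histone genes and variants were mixed, with 8 of 20 higher, 5 lower (40.0% and 25%, against 35.1% and 40.1% of genes tested) and a median of 0.48 that turned to -0.35 with plain library sizes. Brdt, whose bromodomain protein binds acetylated histones, was at 12.8 and 12.8 CPM at day 7 and 626 and 567 CPM in pachytene (log2 fold change 5.54 ± 0.32 SE, adjusted p = 8.2e-07). The spermatid linker histone genes H1fnt and Hils1 stood at 391.9 and 206 and 313 and 218 CPM in pachytene, with 0 and 3 counts over both day 7 libraries. H1f0, the linker histone of resting cells, fell from 277 and 286 to 25.4 and 14.3 CPM (log2 fold change -3.83 ± 0.39 SE, adjusted p = 1.6e-05), and H2afy2 from 32.99 and 35.4 to 5.09 and 4.27 CPM. Cenpa, the centromere histone gene, fell from 54.2 and 43.7 to 6.10 and 0.551 CPM (log2 fold change -3.98 ± 0.71 SE, adjusted p = 0.00061).

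The X chromosome stood apart from every autosome. Of 686 X-linked genes tested, 486 were lower in pachytene (70.8%) and 124 higher (18.1%), with a median log2 fold change of -3.06. Over the 19 autosomes the share lower ran from 34.9% to 41.9%, the share higher from 32.5% to 41.4% and the median from -0.46 to 0.18. The X took 3.74% and 3.78% of gene counts in the day 7 libraries and 0.642% and 0.351% in the pachytene libraries. The chromosome's share of counts was thus 5-fold lower or more in each pachytene library than in each day 7 library. Pachytene replicate 1 was above replicate 2 for 78.7% of X-linked genes, against 54.8% of all genes tested and 66.1% of all genes that fell; its part in the falls was not tested. The share of X-linked genes lower was 70.0% without replicate 1 and 60.6% without replicate 2.

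The share lower was highest among the X-linked genes with the highest mean level over the 10 libraries. At 50 CPM or more, 90 of 102 X-linked genes were lower (88.2%), against 29.3% of autosomal genes of that level. From 10 to 50 CPM the shares were 79.6% and 46.6%, from 1 to 10 CPM 59.8% and 41.7%, and under 1 CPM 49.2% and 29.6%. Against the fraction labelled leptotene/zygotene, 20.7% of X-linked genes were lower in pachytene and 1.603% higher, beside 13.2% and 9.03% of all genes tested. The X share of counts in those libraries was 1.715% and 1.011%, between day 7 and pachytene. The list of X-linked germ cell genes summed to 18241 and 10510 CPM there, against 3069 and 1295 CPM in pachytene. X-linked housekeeping genes summed to 1216.5 and 1062.5 CPM there, against 695 and 424 CPM in pachytene. The part of each in the X share was not tested.

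**Figure D4:**
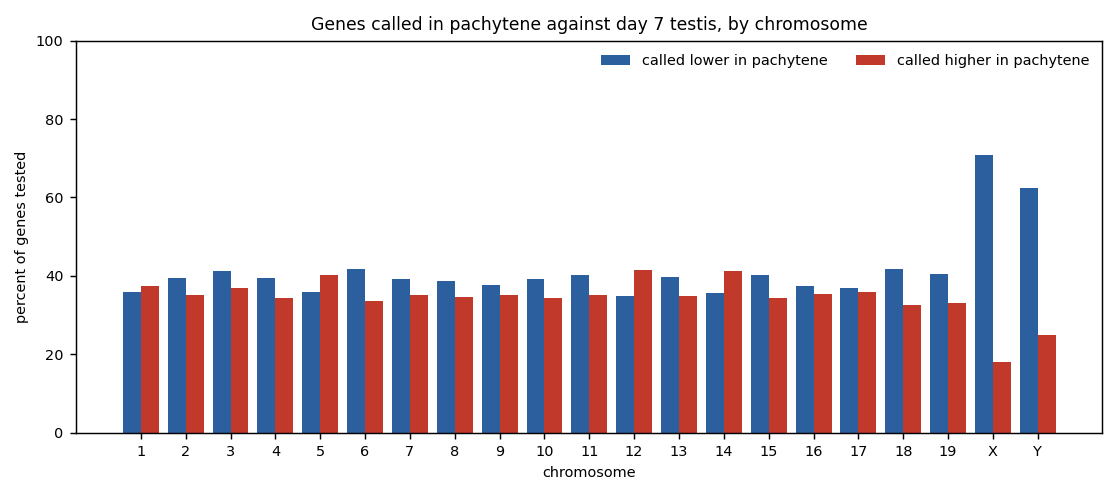
Percent of genes tested on each chromosome that were lower (blue) or higher (red) in pachytene than in day 7 testis by the edgeR test at an adjusted p of 0.05. The X has 70.8% lower, the 19 autosomes 34.9% to 41.9%; the Y bar rests on 8 genes.

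All 41 X-linked housekeeping genes tested were lower, against 70.8% of X-linked genes and 40.1% of genes tested. Their median was -3.99, and their summed level went from 5758 and 5649 CPM to 695 and 424 CPM. Flna, which encodes the actin crosslinker filamin A, was at 824 and 822 CPM at day 7 and 38.5 and 25.5 CPM in pachytene (log2 fold change -4.69 ± 0.35 SE, adjusted p = 2.3e-06). Atrx, a chromatin remodeller gene, was at 293 and 288 CPM at day 7 and 13.4 and 5.64 CPM in pachytene (log2 fold change -4.96 ± 0.73 SE, adjusted p = 0.00018). Ogt, the gene of the enzyme that adds GlcNAc to proteins, was at 423 and 421 CPM at day 7 and 19.1 and 13.8 CPM in pachytene (log2 fold change -4.69 ± 0.34 SE, adjusted p = 2.3e-06). Pdha1, a subunit gene of pyruvate dehydrogenase, was at 49.7 and 49.9 CPM at day 7 and 3.05 and 0.413 CPM in pachytene (log2 fold change -4.97 ± 0.84 SE, adjusted p = 0.00043). Each of these 4 was lower in every pachytene library, and 89.8% of genes tested did not overlap between the groups. The least reduced of the list were Cul4b from 155.4 and 151 to 69.4 and 60.3 CPM and Cstf2 from 93.8 and 91.8 to 30.1 and 28.2 CPM. In 37 of the 41 genes pachytene replicate 1 was above replicate 2. Rpl10 and Rpl36a had 2 and 3 counts in the 4 libraries together and were not tested; reads of these genes can be shared with near-identical copies.

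Several of these genes have an autosomal retrogene, an intronless copy that arose from their RNA and that germ cells use while the X is silent. All 11 such retrogenes rose, against 35.1% of genes tested. All 10 parents that could be tested fell, against 40.1% of genes tested and 70.8% of X-linked genes. Pgk2 rose from 0.0552 and 0.246 to 1741 and 938 CPM as Pgk1 fell from 3.81 and 4.24 to 1.22 and 0.688 CPM. Pdha2 rose from 8.28 and 10.4 to 553 and 425 CPM (log2 fold change 5.71 ± 0.33 SE, adjusted p = 8e-07) as Pdha1 fell. Cetn1, a centrin gene, rose from 0.276 and 0.43 to 1542 and 985 CPM (log2 fold change 11.78 ± 0.70 SE, adjusted p = 9e-07) as Cetn2 fell from 28.8 and 26.05 to 4.07 and 1.51 CPM. Gykl1, a glycerol kinase gene, had no count at day 7 and 1327 and 837 CPM in pachytene, at least 11870.0-fold higher, as Gyk fell from 6.51 and 7.49 to 2.24 and 0.138 CPM. Rpl39l rose from 25.4 and 22.4 to 490.4 and 422 CPM as Rpl39 fell from 12.7 and 14.4 to 1.22 and 0.275 CPM, and Rbmxl2 from 17.2 and 15.2 to 63.1 and 93.1 CPM as Rbmx fell from 100.96 and 98.3 to 6.10 and 4.27 CPM. For every one of these pairs the libraries of both groups did not overlap in either gene, as was so for 89.8% of genes tested. G6pd2, Utp14b, Timm8a2 and Rpl10l rose by 2.22 ± 0.25, 2.28 ± 0.39, 4.33 ± 0.29 and 3.61 ± 0.43 on the log2 scale. The smallest rise was in Cstf2t (1.09 ± 0.40), a call lost without day 7 replicate 1, day 7 replicate 2 or pachytene replicate 1 (adjusted p = 0.11, 0.12 and 0.23) and with plain library sizes (0.59). Pgk1 did not pass without pachytene replicate 2 (adjusted p = 0.071), and its level is uncertain because its reads can be shared with near-identical copies.

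**Figure D5:**
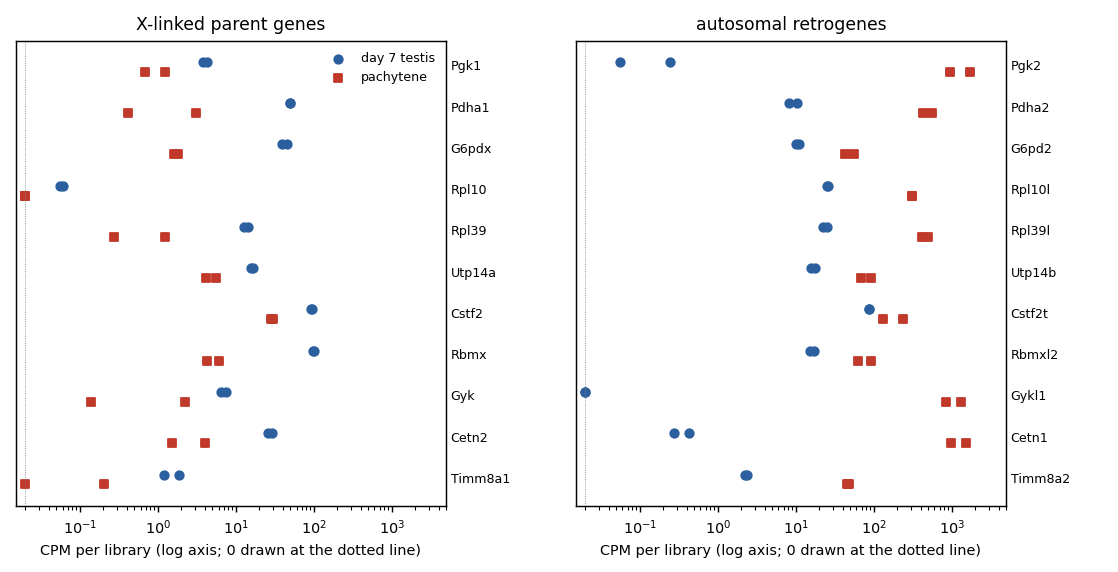
CPM of 11 X-linked parent genes (left) and their autosomal retrogenes (right) in each library of day 7 testis and pachytene (log axis, no count drawn at the dotted line). In the left panel the pachytene points lie to the left of the day 7 points, and in the right panel to their right.

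The promoters of the first pair are shown because they differ in CG pairs, the letters at which DNA is methylated. Each is the 250 bases before the annotated start, in the direction of the gene, from RefSeq on GRCm38.p6, and capitals mark CG.
Pgk2 (chr17:40208610-40208859, - strand): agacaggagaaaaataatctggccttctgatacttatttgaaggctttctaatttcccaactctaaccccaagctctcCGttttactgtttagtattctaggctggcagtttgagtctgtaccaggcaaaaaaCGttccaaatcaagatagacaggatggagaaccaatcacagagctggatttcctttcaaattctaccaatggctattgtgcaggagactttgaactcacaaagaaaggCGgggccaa
Pgk1 (chrX:106186850-106187099, + strand): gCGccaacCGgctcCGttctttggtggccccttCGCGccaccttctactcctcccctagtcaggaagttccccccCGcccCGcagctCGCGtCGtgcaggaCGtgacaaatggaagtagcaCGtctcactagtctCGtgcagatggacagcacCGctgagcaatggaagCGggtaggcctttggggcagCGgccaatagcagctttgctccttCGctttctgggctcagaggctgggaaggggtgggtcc
The Pgk2 sequence holds 3 CG pairs and has 42.0% G and C, an observed-to-expected CG ratio of 0.272. The Pgk1 sequence holds 17 and has 62.8%, a ratio of 0.690.

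X-linked genes known from germ cells did not share 1 direction: 11 of 25 rose and 9 fell (44.0% and 36.0%, against 35.1% and 40.1% of genes tested), with a median of -0.34 that became 0.23 without pachytene replicate 2. Akap4, of the fibrous sheath of the sperm tail, was at 0.0552 and 0.246 CPM at day 7 and 2506 and 904 CPM in pachytene (log2 fold change 13.41 ± 1.70 SE, adjusted p = 6.3e-05). Tsga8 was at 0.276 and 0.123 CPM at day 7 and 130.4 and 182 CPM in pachytene (log2 fold change 9.52 ± 0.73 SE, adjusted p = 2.7e-06). Tex13a and H2afb1 had no count at day 7 and stood at 67.1 and 30.3 and 88.7 and 37.2 CPM in pachytene. The symbol H2afb1 matched several chromosomes, so it counts in this list but not among the 686 X-linked genes tested. Among those that fell, Nxf2 went from 55.3 and 50.002 to 8.34 and 4.41 CPM (log2 fold change -3.07 ± 0.46 SE, adjusted p = 0.0002) and Zfp280c from 33.6 and 36.5 to 4.88 and 4.27 CPM. The summed level of the list was 431 and 402 CPM at day 7, 3069 and 1295 CPM in pachytene, and 18241 and 10510 CPM in the libraries labelled leptotene/zygotene. Of the 8 Y-linked genes tested, 5 fell and 2 rose (62.5% and 25%, against 40.1% and 35.1% of genes tested). Ddx3y fell from 77.7 and 60.02 to 7.94 and 2.48 CPM (log2 fold change -3.77 ± 0.59 SE, adjusted p = 0.00025), Kdm5d from 49.4 and 38.9 to 5.29 and 1.65 CPM and Uty from 33.2 and 25.9 to 5.49 and 2.89 CPM. Zfy2, a zinc finger gene that acts in meiosis and after, rose from 0.441 and 0.491 to 3.26 and 3.58 CPM (log2 fold change 2.85 ± 0.48 SE, adjusted p = 0.00041). The rise of Zfy1 was lost without day 7 replicate 2 (adjusted p = 0.085).

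Genes of spermatogonia, the mitotic germ cells, were lower in 34 of 38 cases (89.5%, against 40.1% of genes tested) with a median of -2.94. Ccnd2 was at 515 and 469.7 CPM at day 7 and 9.36 and 2.20 CPM in pachytene (log2 fold change -6.47 ± 0.90 SE, adjusted p = 0.00011). Sall4, a factor of undifferentiated cells, was at 72.8 and 61.7 CPM at day 7 and 4.68 and 1.10 CPM in pachytene (log2 fold change -4.62 ± 0.66 SE, adjusted p = 0.00014). Zbtb16 (PLZF), of the same cells, was at 99.97 and 79.9 CPM at day 7 and 10.4 and 2.48 CPM in pachytene (log2 fold change -3.85 ± 0.77 SE, adjusted p = 0.0012). Kit, the stem cell factor receptor gene of differentiating spermatogonia, was at 84.5 and 78.2 CPM at day 7 and 17.7 and 4.96 CPM in pachytene (log2 fold change -2.87 ± 0.52 SE, adjusted p = 0.00069). Neurog3 had 200 counts at day 7 and 1 in pachytene (ratio 0.0141 (95% interval 0.000356 to 0.0796)). Stra8, which starts meiosis under retinoic acid, was at 52.1 and 37.6 CPM at day 7 and 7.73 and 3.99 CPM in pachytene (log2 fold change -2.96 ± 0.44 SE, adjusted p = 0.00018). Dmrtb1, which acts at the switch to meiosis, and Id4 were the 2 that rose. Dmrtb1 was at 23.1 and 16.1 CPM at day 7 and 1557 and 1713 CPM in pachytene (log2 fold change 6.38 ± 0.60 SE, adjusted p = 9.3e-06). Id4 was at 8.55 and 10.7 CPM at day 7 and 92.0 and 73.5 CPM in pachytene (log2 fold change 3.10 ± 0.29 SE, adjusted p = 8.7e-06). Through Dmrtb1 the summed level of the list hardly moved, from 2244 and 2045 CPM to 1906 and 1941 CPM. Pachytene replicate 1 was above replicate 2 for 30 of the 38 genes.

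The 14 markers of leptotene and zygotene were 6 higher and 5 lower (42.9% and 35.7%, against 35.1% and 40.1% of genes tested), with a median of 0.16 that became -0.66 with plain library sizes. Sycp3, Hormad1, Spo11, Rec8, Gm1564 (Meioc) and Ythdc2 rose, and Stra8, Mei4, Scml2, Dmc1 and Dazl fell. The call of Ythdc2 was lost without day 7 replicate 1, day 7 replicate 2 or pachytene replicate 1 (adjusted p = 0.098, 0.13 and 0.21) and with plain library sizes (0.91). That of Dazl was lost with any of 7 libraries left out (adjusted p = 0.051 to 0.23). Scml2, which is X-linked, went from 85.8 and 82.3 to 17.5 and 10.1 CPM (log2 fold change -2.62 ± 0.41 SE, adjusted p = 0.00025). Prdm9, which chooses the sites of breaks, was at 3.64 and 3.38 CPM at day 7 and 7.73 and 3.03 CPM in pachytene and did not pass (0.58 ± 0.56).

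Genes of the somatic cells of the testis were among the deepest falls. Of 29 Sertoli cell genes 26 fell (89.7%, against 40.1% of genes tested; median -4.18), and their summed level went from 8322 and 8612 CPM to 802 and 550 CPM. Amh, the anti-Müllerian hormone gene of immature Sertoli cells, was at 430.2 and 436 CPM at day 7 and 1.02 and 1.38 CPM in pachytene (log2 fold change -8.46 ± 0.53 SE, adjusted p = 1.1e-06). Gdnf, which sustains spermatogonial stem cells, was at 42.1 and 37.6 CPM at day 7 and 0.814 and 0.551 CPM in pachytene (log2 fold change -5.89 ± 0.34 SE, adjusted p = 7.9e-07). Sox9, the Sertoli cell determinant, was at 219 and 248 CPM at day 7 and 14.4 and 6.47 CPM in pachytene (log2 fold change -4.50 ± 0.77 SE, adjusted p = 0.00045). The FSH receptor gene Fshr fell from 32.99 and 32.5 to 0.61 and 0.688 CPM (log2 fold change -5.62 ± 0.41 SE, adjusted p = 2.2e-06). Clu, a secreted chaperone gene, remained at 165 and 145 CPM in pachytene (log2 fold change -3.43 ± 0.49 SE, adjusted p = 0.00014). Tsx passed as higher, at 6.10 and 3.03 CPM, but not without day 7 replicate 1 or pachytene replicate 1 (adjusted p = 0.08 and 0.069). Pachytene replicate 1 was above replicate 2 for 23 of the 29 genes.

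Of 17 Leydig cell genes 13 fell (76.5%, against 40.1% of genes tested), with a median of -4.48. Hsd17b3, which makes testosterone, was at 106 and 114.1 CPM at day 7 and 0.203 and 0.413 CPM in pachytene (log2 fold change -8.35 ± 0.46 SE, adjusted p = 6.7e-07). Hsd3b1, of steroid synthesis, was at 178 and 225 CPM at day 7 and 3.46 and 3.17 CPM in pachytene (log2 fold change -5.93 ± 0.34 SE, adjusted p = 8e-07). Cyp17a1, of androgen synthesis, was at 53.4 and 115 CPM at day 7 and 6.10 and 7.02 CPM in pachytene (log2 fold change -3.67 ± 0.54 SE, adjusted p = 0.00016). Hsd3b6, the isoform of adult Leydig cells, was higher, at 0.166 and 0.369 CPM at day 7 and 3.87 and 1.65 CPM in pachytene (log2 fold change 3.30 ± 0.69 SE, adjusted p = 0.0017). Insl3, another adult marker, was at 7.89 and 13.02 CPM at day 7 and 2.24 and 9.09 CPM in pachytene and did not pass, but did so as lower without pachytene replicate 2 (adjusted p = 0.017) and with plain library sizes (0.030). Star, which carries cholesterol into mitochondria, passed as lower but not without day 7 replicate 2 or pachytene replicate 2 (adjusted p = 0.11 and 0.11).

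Of 16 peritubular myoid genes 14 fell (87.5%, against 40.1% of genes tested), with a median of -4.07. The smooth muscle actin gene Acta2 was at 491 and 459 CPM at day 7 and 16.1 and 10.3 CPM in pachytene (log2 fold change -5.18 ± 0.49 SE, adjusted p = 9.3e-06). The tropomyosin gene Tpm1 was at 300.2 and 299.5 CPM at day 7 and 8.34 and 4.96 CPM in pachytene (log2 fold change -5.51 ± 0.53 SE, adjusted p = 1.1e-05). Actg2 rose from 17.6 and 15.5 to 79.6 and 73.5 CPM (log2 fold change 2.21 ± 0.29 SE, adjusted p = 7.4e-05). The matrix showed the deepest median of the 31 lists, -5.52, with 32 of 34 genes lower (94.1%, against 40.1% of genes tested) and none higher. Col3a1 was at 1322 and 1548 CPM at day 7 and 3.66 and 2.75 CPM in pachytene (log2 fold change -8.82 ± 0.47 SE, adjusted p = 6.1e-07). Col1a1, of fibrillar collagen, was at 1148 and 1171 CPM at day 7 and 5.29 and 1.24 CPM in pachytene (log2 fold change -8.55 ± 0.63 SE, adjusted p = 2.3e-06). Col6a2, of microfibrils, was at 486 and 525 CPM at day 7 and 2.44 and 1.93 CPM in pachytene (log2 fold change -7.87 ± 0.37 SE, adjusted p = 5.4e-07). The elastin gene Eln fell from 576 and 582 to 3.87 and 1.65 CPM and the laminin gene Lamb1, of the basement membrane, from 509 and 503 to 4.48 and 2.20 CPM. The summed level of the matrix list went from 15200 and 15675 CPM to 571 and 499 CPM. Nid2 was uneven in pachytene at 4.68 and 69.0 CPM and did not pass, but did so as lower without pachytene replicate 2 (adjusted p = 0.0037), with plain library sizes (0.048) and with the replicate number as a block (0.041).

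Of 18 endothelial genes 14 fell (77.8%, against 40.1% of genes tested), with a median of -2.04. That median was -2.65 without pachytene replicate 1 and -1.61 without pachytene replicate 2. The falls of Emcn and Esam were lost with DESeq2 (adjusted p = 0.079 and 0.098). Eng, a TGF-beta coreceptor gene, fell from 64.3 and 63.2 to 6.71 and 1.79 CPM (log2 fold change -3.97 ± 0.65 SE, adjusted p = 0.00035). Cdh5, of endothelial junctions, fell from 111 and 117 to 16.5 and 4.96 CPM (log2 fold change -3.44 ± 0.78 SE, adjusted p = 0.0027). Sox17 rose from 4.30 and 4.36 to 22.2 and 29.9 CPM (log2 fold change 2.59 ± 0.33 SE, adjusted p = 6.1e-05) and Vwf did not pass (0.26 ± 0.28). Of 19 macrophage and lymphocyte genes 15 fell (78.9%, against 40.1% of genes tested). Their median was -3.39, and -2.24 where genes absent in pachytene are taken at their bound. The falls of Ptprc, Cd4 and Mrc1 were lost with DESeq2 (adjusted p = 0.16, 0.13 and 0.10). Lyz2 was at 26.04 and 34.7 CPM at day 7 and 0.407 and 0.275 CPM in pachytene (log2 fold change -6.48 ± 0.71 SE, adjusted p = 2.4e-05). The growth factor receptor gene Csf1r was at 17.6 and 22.1 CPM at day 7 and 0.61 and 0.688 CPM in pachytene (log2 fold change -4.90 ± 0.45 SE, adjusted p = 8e-06). Tyrobp had 133 counts over both day 7 libraries and none in pachytene, at least 15.7-fold lower. Aif1 and Fcgr3 rose, from 1.82 and 1.597 to 83.6 and 91.3 CPM (log2 fold change 5.67 ± 0.32 SE, adjusted p = 7.3e-07) and from 3.86 and 3.75 to 43.3 and 31.3 CPM (log2 fold change 3.29 ± 0.32 SE, adjusted p = 1.2e-05). Of the erythroid genes 4 could be tested, of which Hemgn rose from 0.11 and 0.123 to 24.2 and 14.5 CPM (log2 fold change 7.25 ± 0.60 SE, adjusted p = 4.3e-06) and the transcription factor gene Klf1 from 1.16 and 0.737 to 19.9 and 6.33 CPM (log2 fold change 3.75 ± 0.61 SE, adjusted p = 0.00034), and Alas2 and Slc4a1 did not pass. The globin genes Hba-a1, Hba-a2, Hbb-b1 and Hbb-b2 had no count in pachytene and together 1 count at day 7.

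Retinoic acid, made from vitamin A, starts meiosis, and 15 of 23 genes of its pathway fell (65.2%, against 40.1% of genes tested) while 5 rose (median -2.37). The synthesis gene of Sertoli cells, Aldh1a1, was at 675 and 703 CPM at day 7 and 19.3 and 10.9 CPM in pachytene (log2 fold change -5.52 ± 0.68 SE, adjusted p = 5.4e-05). Aldh1a2, used by spermatocytes, was at 51.1 and 30.5 CPM at day 7 and 205 and 254 CPM in pachytene (log2 fold change 2.49 ± 0.35 SE, adjusted p = 0.00013). The degrading enzyme gene Cyp26b1, of somatic cells, fell from 285 and 326 to 10.4 and 3.17 CPM (log2 fold change -5.54 ± 0.73 SE, adjusted p = 8.4e-05). Rdh11 and Lrat, which handle retinol, rose from 14.6 and 16.3 to 516 and 456 CPM and from 1.27 and 1.41 to 34.2 and 32.4 CPM. Of the receptors, Rara fell from 116 and 107 to 9.97 and 17.6 CPM, Rarg from 21.4 and 18.6 to 3.05 and 4.54 CPM and Rxra from 106 and 108 to 12.2 and 11.98 CPM.

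DNA methylation genes fell in 14 of 19 cases (73.7%, against 40.1% of genes tested) with 3 higher (median -1.64). Dnmt3a, which sets methylation, was at 285 and 280.4 CPM at day 7 and 12.8 and 4.68 CPM in pachytene (log2 fold change -5.05 ± 0.50 SE, adjusted p = 1.3e-05). Its relative Dnmt3b was at 53.5 and 43.8 CPM at day 7 and 8.34 and 4.68 CPM in pachytene (log2 fold change -2.92 ± 0.39 SE, adjusted p = 8.3e-05). The demethylation genes Tet1, Tet2 and Tet3 fell, with log2 fold changes of -4.53 ± 0.54, -4.41 ± 0.65 and -4.86 ± 0.65. Dnmt1, which maintains methylation, changed less, at 261 and 228 CPM at day 7 and 103.2 and 143 CPM in pachytene (log2 fold change -0.99 ± 0.26 SE, adjusted p = 0.0056), and its call was lost without day 7 replicate 1 (adjusted p = 0.064). Dnmt3l, the cofactor of the setting enzymes, rose from 0.386 and 0.553 to 4.88 and 5.64 CPM (log2 fold change 3.47 ± 0.86 SE, adjusted p = 0.0044).

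Of 21 genes of the miRNA machinery 10 fell and 7 rose (47.6% and 33.3%, against 40.1% and 35.1% of genes tested; median -0.77). Dicer1, which cuts precursors, was at 153 and 154 CPM at day 7 and 27.1 and 7.85 CPM in pachytene (log2 fold change -3.16 ± 0.59 SE, adjusted p = 0.00083). Drosha, which cuts the primary transcripts, was at 132 and 121 CPM at day 7 and 29.3 and 48.5 CPM in pachytene (log2 fold change -1.69 ± 0.38 SE, adjusted p = 0.0024). Among the Argonaute genes, Eif2c1 (Ago1) fell from 98.3 and 86.9 to 13.2 and 8.26 CPM (log2 fold change -3.12 ± 0.52 SE, adjusted p = 0.00038). Eif2c4 (Ago4) rose from 9.77 and 9.46 to 134 and 112 CPM (log2 fold change 3.68 ± 0.30 SE, adjusted p = 4.1e-06) and was also above the libraries labelled leptotene/zygotene (log2 difference 1.76 ± 0.28 SE, adjusted p = 0.0032). The TNRC6 scaffold genes Tnrc6a and Tnrc6b fell (-2.38 ± 0.28 and -2.49 ± 0.35). Tarbp2, a partner of Dicer, rose from 11.6 and 10.6 to 80.4 and 96.6 CPM. Lin28a and Trim71, of undifferentiated cells, fell from 73.5 and 65.9 to 9.16 and 2.34 CPM and from 54.3 and 48.8 to 4.07 and 1.10 CPM, and Lin28b was at 25.4 and 23.1 CPM at day 7 and 24.01 and 20.2 CPM in pachytene and did not pass.

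Some symbols in the table are clone or model names, although genes such as Gm1564 have other names too. Of 1373 tested genes with a symbol of the RIKEN kind, 895 were higher (65.2%, against 35.1% of genes tested) and 262 lower (19.1%), with a median of 4.14. Of 398 with a Gm number as symbol, 224 were higher (56.3%) and 77 lower (19.3%), with a median of 2.47. The difference from other genes was not tested.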

How the data were processed

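RNA of whole testis and of purified germ cells was measured by sequencing, and gene counts were used as the authors deposited them. The submitters' processing notes name mm9, HTSeq 0.6.1, edgeR 3.6.8, Bowtie 0.12.7 and BWA 0.7.8. Which of these made the table, and whether counting used strand, is not given in the sources used here, so overlapping and antisense genes cannot be told apart. Extraction with TRIzol and STA-PUT purification are per the labels' protocols. The 5 summary rows that name no gene held 49.0% and 48.5% of reads at day 7 and 64.5% and 49.0% in pachytene, and stayed out of library sizes and tests.

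Groups follow the labels, and 10 libraries of 5 stages entered 1 fit with edgeR 4.0.16 (R 4.3.3; 5 residual degrees of freedom): filterByExpr with a minimum count of 10, TMM, the two-sided quasi-likelihood F test and Benjamini-Hochberg adjustment at 0.05 over all 16872 genes tested. Dividing a log2 fold change by the square root of its F statistic gave its standard error. Effective library sizes make 3 counts worth 0.166 and 0.184 CPM in the day 7 libraries and 0.610 and 0.413 CPM in pachytene. A fold against a group without counts is a bound at 3 counts over the group, and a ratio with 1 to 3 counts has an exact 95% interval; both cover counting error only. The test was tried on simulated counts in which few genes changed, unlike the data. It recovered 1 of 67 genes changed 2-fold, 37 of 67 changed 4-fold and 60 of 66 changed 16-fold, with 6 false calls. With few changed genes the adjusted cutoff is stricter than in the data, so these recoveries do not carry over to them. A gene that did not pass can still have changed.

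The comparison, gene lists and tests were chosen with earlier results of these data known. Named are the 12 largest rises and falls past the test at 10 CPM or more in the higher group without overlap, the members of each list that changed most (4 at most), all genes of the pairs, the 10 genes with the most counts per group and a set of well-known stage and cell type genes; other members were chosen after their values were seen. Some genes that meet this rule are not reported here. Counts of list members are over those tested: of 767 entries in the lists 726 were tested, 30 were under the filter and 11 had no row. Older symbols of some members (the Dnahc genes, Spdya and 2410076I21Rik) were added after the table was seen. RefSeq's genes of GRCm38.p6 gave the chromosome of 99.4% of the 23366 symbols. Replicate numbers did not pair the libraries: deviations of day 7 and pachytene libraries of the same number correlated at -0.00915 over genes. Alternatives were DESeq2 1.42.0, other size factors, no filter, the 4 libraries alone, a 2-fold minimum, the block, and each library or the fraction labelled leptotene/zygotene left out.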

Additional observations from a re-analysis of the deposited data

How the results depend on the processing

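None of the 217 named genes with a value reversed its call under 19 alternatives, and no gene called in the comparison was called in the opposite direction. For 45 counts and shares, 825 of 851 values stayed near the main value and the rest moved. Of the 12680 calls, 80.0% (a 2-fold minimum) to 98.8% (the replicate block) were kept where no single library was left out. Leaving out a library gave 11122 to 13372 calls, 5246 to 6254 higher and 5860 to 7121 lower; the lone library left is assumed to vary like the other groups. The share of X-linked genes lower, 70.85%, was 56.18% without the filter, where more genes of few counts are tested, 76.09% with plain library sizes, 66.18% against a 2-fold minimum, 74.32% without the leptotene/zygotene libraries and 60.64% to 70.68% with a library left out, while the autosomal share went from 30.64% to 51.2%. Against a 2-fold minimum, 4 break formation genes were lower and 3 telomere genes higher, in place of 9 and 6; with plain library sizes, 5 crossover and 3 telomere genes were higher, in place of 8 and 6. Pachytene against the libraries labelled leptotene/zygotene gave 1524 genes higher and 2220 lower, 3729 and 1107 with plain library sizes, 300 and 624 against a 2-fold minimum, and 878 to 2075 and 1198 to 2996 with a library left out; the cause was not tested. With the replicate number as a block, 12653 genes were called and 98.8% of calls kept, and that block is no pairing by design. The median over all genes was 0.00 with median-ratio and -0.53 with upper-quartile factors. Depth limits genes under a few CPM, where 3 counts are 0.610 CPM in the shallower pachytene library.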
